A study of Mus musculus with 6 samples.

Results

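The CC chemokine genes described here are Ccl2, Ccl3, Ccl4, Ccl5, Ccl6, Ccl9, Ccl17, Ccl22 and Ccl24, 9 genes that encode secreted chemoattractants. Their members were chosen by name, as the probes whose RefSeq accession belongs to one of these genes, 9 of 22911 genes named on the array, which gave 10 of its 56605 probes, with 1 probe for each gene except Ccl4, which had 2. They were measured in C5aR+ LysoDCs, lysozyme-expressing phagocytes of the mouse Peyer's patch that carry the receptor for the complement fragment C5a. Per the labels, CD11c+ cells were enriched with microbeads after dead cells were removed, and the sorted cells of both groups were kept in medium with serum, CSF-1 and CFS-2 (the spelling of the labels). The untreated group, labelled 0 nM C5a, had 3 samples, and the C5a group had 3 samples given 100 nM recombinant C5a for 3 h. Strain, genotype and age of the mice, pooling of animals and the culture time of the untreated samples are not given in the sources used here. Each group's samples are numbered 1 to 3. Nothing in the labels ties a sample to an animal or a cell preparation, so the spread behind each p-value is that of these 6 arrays and could be technical. The comparison asks whether C5a changed the chemokine transcripts of these cells.

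CC chemokines are small proteins with 2 adjacent cysteines near their start. They are secreted, bind G protein-coupled receptors on leukocytes and guide these cells along a gradient. In mucosal lymphoid tissue, phagocytes and dendritic cells make inflammatory CC chemokines after microbial or cytokine signals, while other members bring T cells and dendritic cells together. Ccl3, Ccl4 and Ccl5 encode inflammatory chemokines that draw monocytes and T cells. Ccl2 encodes the main monocyte attractant, a ligand of CCR2. Ccl6 and Ccl9 are rodent chemokines of macrophages that act on CCR1. Ccl17 and Ccl22 encode the ligands of CCR4 and are typical of dendritic cells. Ccl24 encodes eotaxin-2, a ligand of the eosinophil receptor CCR3. In the RefSeq gene table (assembly GRCm38.p6), the protein-coding genes Ccl5, Ccl9, Ccl6, Ccl3 and Ccl4 follow each other in this order, and Cx3cl1 alone stands between Ccl22 and Ccl17.

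The RefSeq promoter table of the same build held 5 of the 9 genes (Ccl3, Ccl6, Ccl9, Ccl17 and Ccl22). The 250 bases before the transcript start are shown for Ccl3, Ccl17 and Ccl9, because these genes had 3 different patterns over the samples, given below. Each sequence reads 5′ to 3′ on the gene's own strand. Capitals mark matches on either strand to 1 of the 4 motifs named after the sequences.
Ccl3: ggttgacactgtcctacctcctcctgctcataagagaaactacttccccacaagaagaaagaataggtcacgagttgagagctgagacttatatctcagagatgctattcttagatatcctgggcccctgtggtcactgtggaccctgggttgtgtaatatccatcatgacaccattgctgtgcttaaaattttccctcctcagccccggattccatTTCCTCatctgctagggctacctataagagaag
Ccl17: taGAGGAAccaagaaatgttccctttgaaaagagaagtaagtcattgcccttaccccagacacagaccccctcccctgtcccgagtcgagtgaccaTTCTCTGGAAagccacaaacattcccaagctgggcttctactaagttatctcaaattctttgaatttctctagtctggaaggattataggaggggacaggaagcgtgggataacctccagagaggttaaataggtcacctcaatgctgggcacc
Ccl9: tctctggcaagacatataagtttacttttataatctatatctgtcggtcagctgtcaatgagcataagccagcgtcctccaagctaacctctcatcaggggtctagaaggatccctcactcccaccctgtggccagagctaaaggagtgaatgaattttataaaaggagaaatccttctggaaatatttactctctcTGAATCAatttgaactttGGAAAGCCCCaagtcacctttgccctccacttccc
The Ccl3 stretch is chr11:83649379-83649628 on the minus strand, the Ccl17 stretch chr8:94810203-94810452 on the plus strand and the Ccl9 stretch chr11:83578637-83578886 on the minus strand, all in GRCm38.p6. The NF-kB motif GGGNNTTTCC, bound by the inflammatory transcription factor NF-kB, was searched on both strands and matched Ccl9 alone of the 5 promoters (35 to 26 bases before the start). It is present in 1.41% of the 32851 promoters of the table over the same 250 bases. The AP-1 motif TGANTCA also matched Ccl9 alone (53 to 47 bases before the start) and is in 6.75% of promoters. The palindromic STAT motif TTCNNNNGAA matched Ccl17 alone (154 to 145 bases before the start) and is in 5.85%. The PU.1 motif GAGGAA, of the myeloid factor PU.1, matched Ccl3 and Ccl17 and is in 23.3%. None of the 4 motifs matched the windows of Ccl6 and Ccl22. No capitals of different motifs overlap. These matches are letters in a window and say nothing of binding.

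Detection split the family. Ccl3, Ccl4, Ccl5, Ccl9, Ccl17 and Ccl24 were well above background, by the scanner's own flag, on all 6 arrays. Ccl6 was so on 2 arrays, untreated 2 and C5a 2, and Ccl2 and Ccl22 on 0 arrays. The unscaled processed signal of Ccl6 was 9.32, 12.3 and 11.2 in the untreated samples 1 to 3, and 9.85, 15.5 and 9.89 in the C5a samples 1 to 3. These signals lie close to the dimmest signal that the scanner software called on each array, 10.5 to 12.8. Both arrays with a Ccl6 call were also the brightest arrays of the study, and the part of brightness in the call was not tested. The signal of Ccl2 ran from 2.17 to 7.17 and that of Ccl22 from 2.55 to 4.05, with no array near a call. For Ccl2 and Ccl22, and for Ccl6 on the arrays without a call, only an upper bound is known. No fold is given for these 3 genes. Of the 2 CCR4 ligands, Ccl17 was thus called on 6 of 6 arrays and Ccl22 on 0 of 6; the brightness of different probes is not compared.

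**Figure D1:**
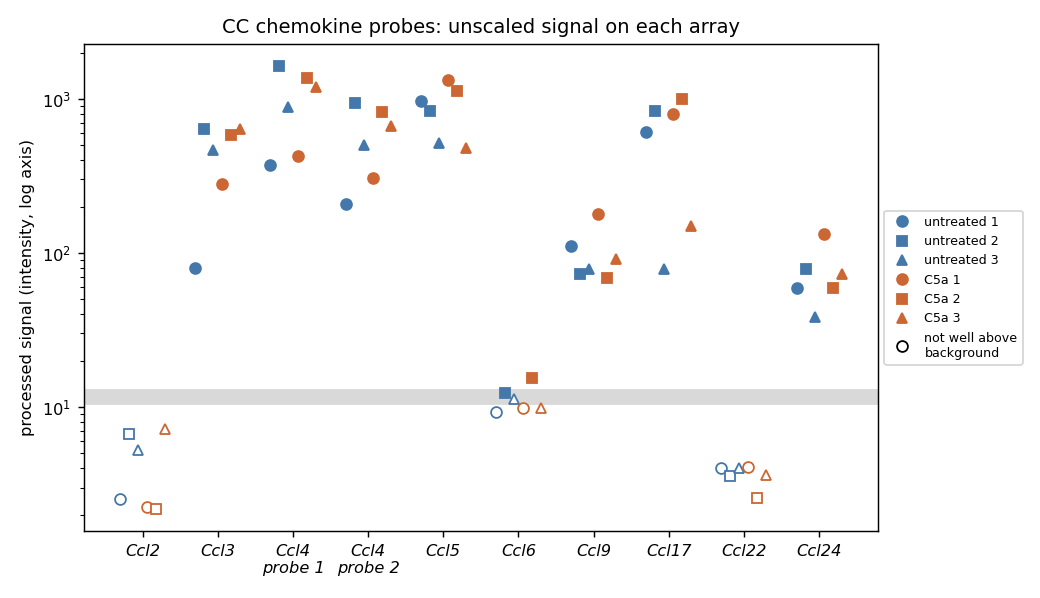
Unscaled processed signal (log axis) of the 10 CC chemokine probes on each of the 6 arrays, with filled symbols where the probe was well above background. The grey band spans the lowest signals called on each array, 10.5 to 12.8; Ccl2 and Ccl22 lie below it, Ccl6 lies around it and the other probes lie above it.

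The arrays themselves were dim and uneven. Between 2728 and 6959 probes per array were well above background, and brightness, taken as the 75th percentile of signal over the 2371 probes detected on every array, spanned a 4.23-fold range. It was 163 and 254 on the number 1 arrays, 459 and 377 on the number 2 arrays, and 109 and 154 on the number 3 arrays (untreated first). Levels below are log2 signals less this percentile, so that 0 means a signal equal to it. Of 13 phagocyte markers 11 were tested, among them Lyz1 and Itgax, each detected on all 6 arrays, while Mertk and Cx3cr1 were detected on 0 arrays. The 7 T cell markers, the 7 NK or cytotoxic markers, the 6 eosinophil or mast cell markers, the 6 epithelial markers and the 6 stromal or endothelial markers were all undetected, as were the 5 neutrophil markers with a probe. Over the whole array, 48672 of 56605 probes were detected on 0 arrays, so a marker without a call is common here. Fewer cells of a type and less RNA per cell cannot be told apart in these samples.

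No CC chemokine gene among the 6 tested was called as changed by C5a. In limma with Benjamini-Hochberg adjustment over 4488 genes, 0 of the 6 and 0 of all genes (0%) had an adjusted p under 0.05. At an unadjusted p under 0.05 there were 0 of 6 members and 106 of 4488 genes (2.36%). The C5a and untreated values overlapped for all 6 members, and they did not overlap for 5.7% of all genes (3.39% higher and 2.32% lower with C5a). With 6 members this does not set them apart from all genes. The median difference, C5a minus untreated, was 0.11 over the 6 members and 0.037 over all genes, with 3 of 6 members and 54.9% of genes above 0. The number of arrays, 3 per group, limits the precision of each value.

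Among the inflammatory chemokines, Ccl3, which encodes MIP-1 alpha, had levels of -1.03, 0.48 and 2.11 in untreated 1, 2 and 3. Its levels were 0.15, 0.62 and 2.04 in C5a 1, 2 and 3. Both number 1 samples were low and both number 3 samples high, and the groups overlapped. The group means were 0.52 ± 1.57 (SD, n = 3) untreated and 0.94 ± 0.99 with C5a, a difference of 0.42 (SE 0.84, 95% interval -1.55 to 2.39, limma adjusted p = 0.999). That difference came from number 1, where C5a was higher by 1.18, against 0.15 in number 2 and -0.064 in number 3. Without untreated replicate 1 it was -0.35, and without C5a replicate 3 it was -0.13.

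Ccl4, which encodes MIP-1 beta and lies next to Ccl3, was measured by 2 probes. On the brighter probe its levels were 1.18, 1.83 and 3.02 in untreated 1, 2 and 3 and 0.76, 1.87 and 2.96 in C5a 1, 2 and 3. As for Ccl3, number 1 was low and number 3 high in both groups, but within number 1 the C5a sample was the lower one, by contrast with Ccl3. The second probe gave 0.35, 1.03 and 2.20 untreated and 0.27, 1.11 and 2.12 with C5a, and sat below the first by 0.753 ± 0.137 (SD over the 6 arrays). The 2 probes therefore gave the same pattern with a near-constant offset, the smallest gap being 0.481 on C5a 1. The means of the brighter probe were 2.01 ± 0.94 (SD, n = 3) untreated and 1.86 ± 1.104 with C5a, a difference of -0.15 (SE 0.67, limma adjusted p = 0.999). The second probe differed by -0.023 (SE 0.62), and the sign on the brighter probe turned in 6 of 18 alternative settings. Some of the 18, such as the filters, leave the difference unchanged and could not turn it.

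Ccl5, which encodes RANTES, a chemokine of T cells, NK cells and activated phagocytes, had levels of 2.57, 0.85 and 2.24 in untreated 1, 2 and 3. In C5a 1, 2 and 3 they were 2.38, 1.57 and 1.65. Untreated 2 was the lowest sample, and the C5a values all lay within the untreated range. The means were 1.89 ± 0.91 (SD, n = 3) and 1.87 ± 0.45, a difference of -0.021 (SE 0.50, 95% interval -1.19 to 1.15, limma adjusted p = 0.999). All 14 T cell, NK and cytotoxic markers were undetected beside this signal. So were 48672 of the 56605 probes of these dim arrays, and the cell source of Ccl5 was not tested.

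Ccl17, the CCR4 ligand also known as TARC, had levels of 1.91, 0.87 and -0.46 in untreated 1, 2 and 3 and 1.65, 1.40 and -0.038 in C5a 1, 2 and 3. Both number 3 samples were low, the reverse of Ccl3 and Ccl4. The means were 0.77 ± 1.19 (SD, n = 3) untreated and 1.01 ± 0.91 with C5a, a difference of 0.23 (SE 0.69, 95% interval -1.39 to 1.86, limma adjusted p = 0.999). C5a was higher in numbers 2 and 3, by 0.53 and 0.42, and differed by -0.26 in number 1. The sign turned without untreated replicate 3 (-0.38) and without C5a replicate 1 (-0.091).

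Ccl9, the macrophage chemokine also called MIP-1 gamma, had levels of -0.56, -2.66 and -0.47 in untreated 1, 2 and 3. With C5a they were -0.49, -2.46 and -0.76. Both number 2 samples were low and the other 4 lay close together. The difference was -0.0065 (SE 0.75, 95% interval -1.76 to 1.75, limma adjusted p = 0.999), from means of -1.23 ± 1.24 (SD, n = 3) untreated and -1.24 ± 1.07 with C5a.

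Ccl24 was also lowest in number 2 in both groups. The Ccl24 levels were -1.46, -2.55 and -1.50 in untreated 1, 2 and 3 and -0.92, -2.68 and -1.07 in C5a 1, 2 and 3. Its means were -1.83 ± 0.62 (SD, n = 3) and -1.56 ± 0.98, a difference of 0.28 (SE 0.55, 95% interval -1.03 to 1.58, limma adjusted p = 0.999). C5a was higher in numbers 1 and 3 and lower in number 2. The sign turned without untreated replicate 2 (-0.080) and without C5a replicate 1 (-0.038).

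**Figure D2:**
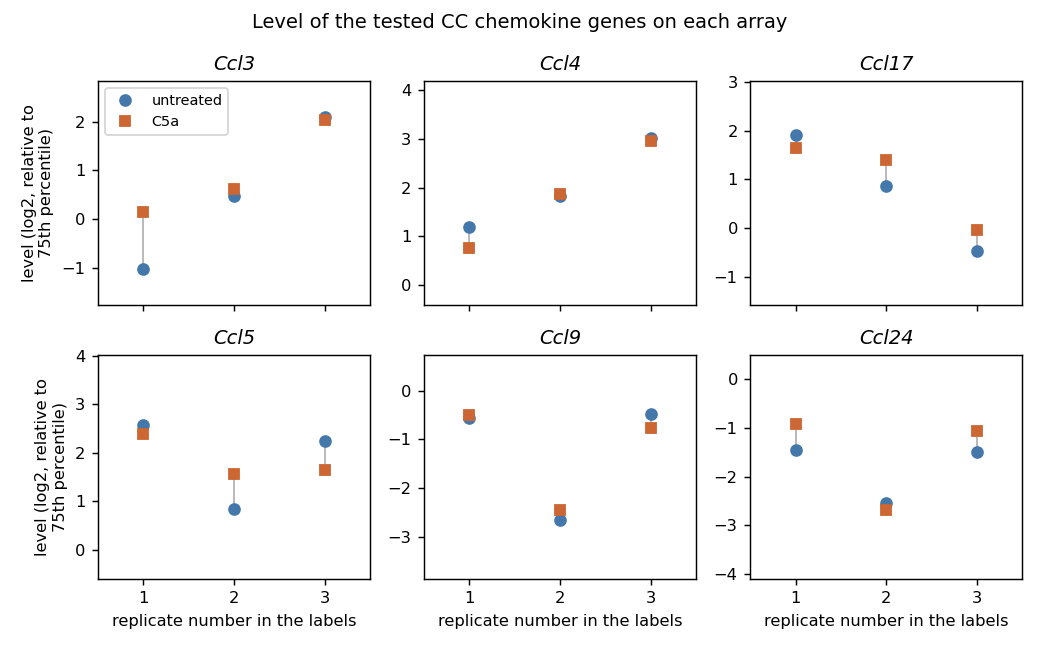
Level (log2 signal relative to the array's 75th percentile over detected probes) of the 6 tested CC chemokine genes, by replicate number, with grey bars joining the untreated and C5a sample of a number; each panel spans the same range of levels. Same-numbered samples lie within 0.72 of each other except for Ccl3 in number 1 (1.18), with number 3 high for Ccl3 and Ccl4 and low for Ccl17, and number 2 low for Ccl9 and Ccl24.

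Most of the spread of these genes went with the replicate number. With the number as a block, the SE of the C5a difference was 0.32 for Ccl3, 0.22 for Ccl4, 0.32 for Ccl5, 0.23 for Ccl9, 0.26 for Ccl17 and 0.24 for Ccl24. The median SE of the members fell from 0.68 to 0.25, while over all genes it went from 0.37 to 0.26, and 92.4% of genes had a smaller SE with the block. No member passed the test in the fit with the block either. The smallest p among them was that of Ccl3 (limma unadjusted p = 0.25, adjusted p = 0.927, 95% interval -0.42 to 1.27), and 0 of 4488 genes (0%) were called, with 191 (4.26%) at an unadjusted p under 0.05. The intervals with the block were -0.73 to 0.44 for Ccl4, -0.87 to 0.83 for Ccl5, -0.59 to 0.58 for Ccl9, -0.44 to 0.91 for Ccl17 and -0.36 to 0.92 for Ccl24. A C5a difference of 1.27 or more on the log2 scale, in either direction, lay outside the interval of every tested member in this fit. The labels do not give the pairing it rests on, and without the block the interval of Ccl3 ran to 2.39. The slide held the untreated samples and C5a 1 in row 1, and C5a 2 and 3 in row 2. With the row as a covariate, which compares C5a 1 with the 3 untreated samples, the differences were -0.37 (SE 1.19) for Ccl3, -1.25 (SE 0.80) for Ccl4, 0.50 (SE 0.70) for Ccl5, 0.74 (SE 1.05) for Ccl9, 0.88 (SE 0.98) for Ccl17 and 0.91 (SE 0.76) for Ccl24. In 0 of 6 members did the 3 same-numbered pairs all differ in the same direction. Over all genes this share was 25.2%, and 6 members are too few to be told apart from it.

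**Figure D3:**
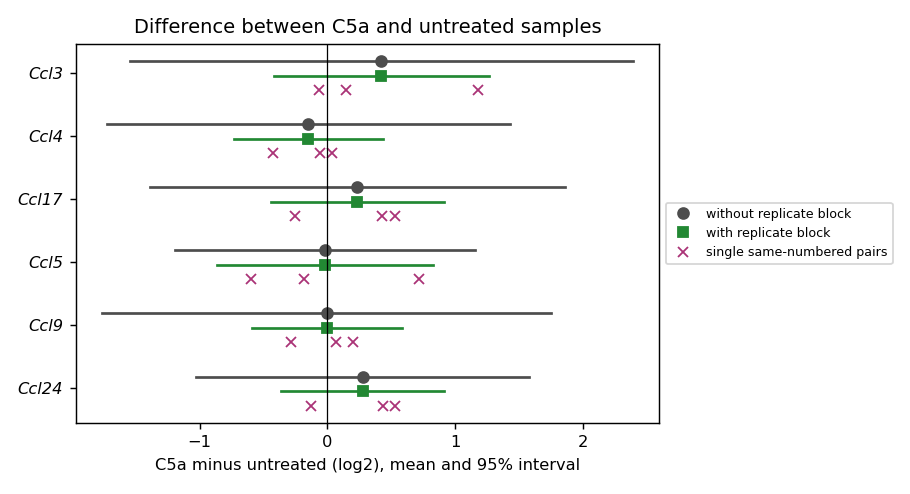
Difference in level (log2, C5a minus untreated) of the 6 tested genes with its 95% interval, from the fits without and with the replicate number as a block, and the difference within each same-numbered pair (crosses). All intervals include 0; those with the block are narrower, such as -0.42 to 1.27 against -1.55 to 2.39 for Ccl3.

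The replicate number was tested as a term of its own, by limma's F test in the fit with C5a and number. Unadjusted p was 0.00146 for Ccl9, 0.00245 for Ccl4, 0.00422 for Ccl17, 0.00458 for Ccl3, 0.00982 for Ccl24 and 0.0654 for Ccl5. Thus 5 of 6 members had an unadjusted p under 0.05, against 803 of 4488 genes (17.9%). This contrast did not hold in every setting: it was 3 of 6 members against 59% of genes with the percentile over all probes, 3 of 6 against 59.2% in the deposited series table, and 5 of 6 against 76.6% with no filter. After Benjamini-Hochberg adjustment over all genes 0 members and 0 genes (0%) passed, the members' adjusted p lying between 0.173 and 0.294. With only 2 arrays per number, the call depended on the setting, and it is given for other settings with the limits of the processing. The values of the 3 numbers did not overlap for 4 of 6 members (Ccl3, Ccl4, Ccl5 and Ccl17), against 17% of all genes.

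By size, Ccl3 was higher in number 3 than in number 1 by 2.52 (SE 0.40) and Ccl4 by 2.03 (SE 0.27). Ccl17 went the other way, with -2.03 (SE 0.32). Number 3 minus number 1 was -0.53 for Ccl5, -0.090 for Ccl9 and -0.092 for Ccl24, while number 2 minus number 1 was -1.26, -2.03 and -1.43 for these genes. With the percentile over all probes, number 2 minus number 1 shrank to -0.27, -1.04 and -0.44, and the limma F test of the number had an unadjusted p of 0.309, 0.243 and 0.687. The signs of number 3 minus number 1 were the same for all 6 members in each of the 9 alternative scalings, filters and value sources. The filter settings leave these values unchanged and could not turn them, as does the mean over kept probes for all but Ccl4. The deposited series table nearly repeats the percentile over all probes. For Ccl9 and Ccl24 the differences were small beside their SE (0.28 and 0.30), so their sign carries little weight. Number 2 against the other numbers was less firm, since with the percentile over all probes the sign of number 2 minus number 1 turned for Ccl17 (0.34).

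**Figure D4:**
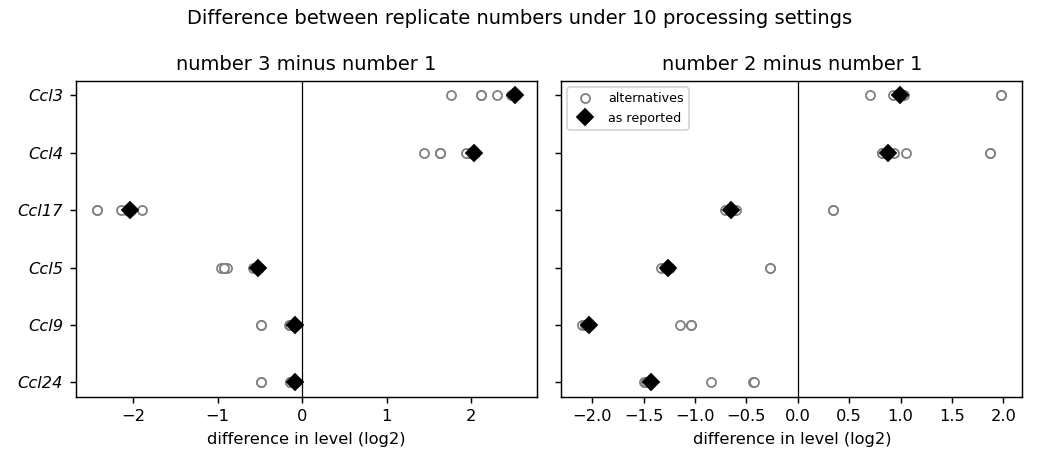
Difference in level (log2) between replicate numbers, averaged over the untreated and C5a sample of each, for the 6 tested genes as reported (diamonds) and under 9 alternative settings (open circles). Number 3 minus number 1 keeps its sign throughout, from 1.755 to 2.53 for Ccl3 and from -2.43 to -1.901 for Ccl17, and number 2 minus number 1 turns for Ccl17. Settings that change only the filter repeat the reported value.

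The change of Ccl3 relative to Ccl17 needs no scaling between arrays, because it is seen in the ratio of both signals on the same array. The ratio alone does not show which of the genes changed. From number 1 to number 3 the ratio of Ccl3 to Ccl17 was 45.7-fold higher among the untreated samples and 12-fold higher among the C5a samples. For Ccl4 against Ccl17 the same ratio was 18.6-fold and 14.9-fold higher. Unscaled, Ccl17 was at 78.9 and 150 on the number 3 arrays (untreated first) and between 614 and 997 on the other 4. Ccl3 was at 79.8 and 281 on the number 1 arrays and between 469 and 639 on the other 4. The place of number 2 did depend on scaling. Unscaled, Ccl17 was highest on the number 2 array of each group, at 841 untreated and 997 with C5a.

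The number 2 arrays, on which Ccl9, Ccl24 and Ccl5 had low levels, were also the brightest. Unscaled, Ccl9 had signals of 111, 72.7 and 78.2 in untreated 1, 2 and 3 and 180, 68.4 and 90.7 in C5a 1, 2 and 3, a 2.63-fold range that became 4.55-fold in the levels. The number 2 arrays remained the lowest, by less. Ccl24 had unscaled signals of 59.6, 78.4 and 38.5 untreated and 134, 58.8 and 73.5 with C5a, in which number 2 was the lowest of the C5a arrays and the highest of the untreated ones. Across the 6 arrays, the unscaled log2 signal correlated with log2 brightness at -0.173 for Ccl9, 0.464 for Ccl24, 0.618 for Ccl5, 0.424 for Ccl4, 0.311 for Ccl3 and 0.842 for Ccl17. The levels, from which brightness is subtracted, correlated with it at -0.868 for Ccl9, -0.712 for Ccl24 and -0.684 for Ccl5. For Ccl4, Ccl3 and Ccl17 the levels gave -0.464, -0.371 and 0.505. These are descriptions over arrays that share numbers, and the part of brightness in the patterns was not tested.

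Over the 6 arrays the levels of the members fell into 3 patterns. Ccl3 and Ccl4 went together (Pearson r = 0.893) and both ran against Ccl17 (r = -0.94 for each). Ccl9 and Ccl24 went together (r = 0.935), and Ccl5 followed Ccl9 (r = 0.858) more than Ccl24 (r = 0.694). All levels of an array have the same brightness subtracted. The levels of Ccl9, Ccl24 and Ccl5 correlated with log2 brightness at -0.868, -0.712 and -0.684, and its part in their r was not tested. The correlation of Ccl3 with Ccl9 was 0.0883. Same-numbered arrays are not independent, so these values carry no p. Ccl9 and its neighbour Ccl6 could not be compared, as Ccl6 was near background.

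Among all 3275 other named genes tested, those closest to Ccl3 by Pearson correlation over the 6 arrays were Oser1 (r = 0.998) and Dusp2 (r = 0.996), a MAP kinase phosphatase. Dusp2 had levels of -3.85, -2.28 and -0.59 in untreated 1, 2 and 3 and -2.44, -2.20 and -0.43 in C5a 1, 2 and 3. Within each group this is the order of numbers seen for Ccl3. Closest to Ccl4 were Npcd (r = 0.991) and Ly6e (r = 0.988), and closest to Ccl17 were Tmem258 (r = 0.992) and Ocel1 (r = 0.991). Ccl9 was nearest to Stx4a (r = 0.992) and Sox5 (r = 0.97), Ccl24 to Rnaseh2c (r = 0.978) and Fcer1g (r = 0.976), the Fc receptor gamma chain, and Ccl5 to Ubxn6 (r = 0.976) and Ano6 (r = 0.971). Some of these genes fell below the lowest level called on an array, where values are not exact. In untreated 1 (lowest called level -3.67) Npcd was at -4.78, Ly6e at -5.08 and Dusp2 at -3.85. In untreated 3 (lowest called level -3.31) Tmem258 was at -4.84, Ocel1 at -4.36 and Npcd at -3.41. Ubxn6 at -3.57, Ano6 at -3.585 and Rnaseh2c at -3.37 were below that level there too. In C5a 1 (lowest called level -4.50) Npcd was at -5.06 and Ly6e at -6.05. In C5a 3 (lowest called level -3.81) Tmem258 was at -4.58, Ocel1 at -4.16 and Ano6 at -4.03. These correlations rest on 6 arrays that share numbers and are a description of them.

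Of the other CC chemokine genes, 12 of 14 had a named probe. Well above background on 0 arrays were 48672 of the array's 56605 probes and also all 12 of these genes. These include Ccl19 and Ccl21a, which draw CCR7-bearing cells, Ccl20, the ligand of CCR6 made by the epithelium over Peyer's patches, and Ccl25, the ligand of CCR9. The CC chemokine transcripts called on these arrays were Ccl3, Ccl4, Ccl5, Ccl9, Ccl17, Ccl24 and, on the 2 brightest arrays, Ccl6. On arrays this dim, a transcript without a call is not shown to be absent from the cells.

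Of 14 CC chemokine receptor genes, 5 were tested and 0 passed, with 3 differences above 0 and a median of 0.016. Over all genes 54.9% of differences were above 0, with a median of 0.037. Ccr1, Ccr2, Ccr3 and Ccr4, receptors of the members Ccl9, Ccl2, Ccl24 and Ccl17, were well above background on 0 arrays, as were 48672 of 56605 probes. Ccr9, a receptor of gut-homing lymphocytes and plasmacytoid dendritic cells, differed by -0.75 (SE 0.88, limma unadjusted p = 0.419). It was detected on 2 arrays of each group. Its value in C5a 3 (-5.95) lay below the lowest level called on that array (-3.81), so the size of this difference is not exact. Ccr6 differed by 0.16 (SE 0.53). Ccr7, which guides mature dendritic cells and whose values had been seen when it was singled out, was at -2.21, -0.76 and 0.84 in untreated 1, 2 and 3 and -1.82, -0.77 and 0.50 in C5a 1, 2 and 3. Its number 3 samples were high, as for Ccl3 and Ccl4. It differed by 0.016 (SE 0.86) with C5a.

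Ccr7 belongs to the 8 mature dendritic cell markers, of which 6 were tested and 1, Fscn1, was on 0 arrays. The log2 of their summed signal was 0.037, 0.63 and 1.60 in untreated 1, 2 and 3 and 0.098, 0.63 and 1.34 in C5a 1, 2 and 3. The sum was thus lowest in number 1 and highest in number 3 in both groups, as were Ccl3 and Ccl4, and its part in their pattern was not tested. Ccr7 made up 21% of the sum in untreated 1 and 58.9% in untreated 3. Without it the sum was -0.303, -0.0642 and 0.317 untreated and -0.346, -0.0514 and 0.154 with C5a, the same order over a smaller range. Of the single markers, Cd83 had this order too, while Cd40 was lowest and Cd86 and Relb were highest in number 2, and Cd80 was detected on 0 number 3 arrays. The 4 tested plasmacytoid dendritic cell markers summed to 0.15, -0.29 and -1.20 untreated and -1.04, 0.17 and -0.48 with C5a, an order that differed between the groups. Cd79b was the 1 B cell marker of 6 that was tested. It was detected on 1 untreated and 2 C5a arrays, and 4 of the other markers were detected on 0 arrays. Of 5 plasma cell markers, Xbp1 and Prdm1, which phagocytes also express, were tested, and their summed level lay between -1.40 and -0.37 untreated and between -1.01 and -0.38 with C5a.

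Of 27 genes for transcription factors and inhibitors that act on CC chemokine genes, 17 were tested and 0 passed the limma test after adjustment, with 1 at an unadjusted p under 0.05. Over all genes 2.36% had an unadjusted p under 0.05 in this limma fit. Of the 17 differences 13 were above 0, against 54.9% of all genes. Their median was 0.12, against 0.037 over all genes, and the list was not tested as a set. Zfp36, which encodes a protein that destabilises cytokine and chemokine mRNAs, was at -3.95, -3.59 and -4.21 in untreated 1, 2 and 3 and -3.54, -2.74 and -1.54 in C5a 1, 2 and 3. The fitted difference was 1.31 (SE 0.51, limma unadjusted p = 0.0371). With detection on only 1 untreated and 2 C5a arrays, some of these values are not well above background, so that the size of the difference is not exact. Tnfaip3, an inhibitor of NF-kB, differed by -1.35 (SE 0.68) and Jun by 0.32 (SE 0.27). Rel, Ikbkb, Ikbkg and Fos were well above background on 0 arrays, as were 48672 of 56605 probes.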

How the data were processed

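Per the labels and file headers, 1-colour (Cy3) Agilent arrays of design 074809, 1 per sample, were read with Feature Extraction 10.10.1.1, all on 1 slide in 1 scan. The deposited scanner files give intensity per spot (processed signal, and median spot and background signals) and, per the file headers, flags of 0 or 1 in columns of other kinds. The deposited series table holds log2 values; 98.9% of differences between its columns lay within 0.01 of those in log2 processed signal less the 75th percentile over all probes, so its scale and direction are known and its probe baseline is not. Log2 processed signal was averaged over the spots of a probe, without spots marked as outliers (112 to 138 per array). No spot was saturated. RefSeq accessions, without versions, named 32994 of 56605 probes through a GRCm38.p6 table; the array cites mm9, so only the promoter stretches have coordinates, those of the RefSeq table.

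Levels are log2 processed signal less the 75th percentile over probes well above background (in at least 0.5 of their spots) on all 6 arrays. Probes well above background on at least 3 arrays were kept (4958), and a gene is its kept probe with the highest mean. Groups were compared with limma 3.58.1 (R 4.3.3), Benjamini-Hochberg adjustment and a threshold of 0.05. Scripts were tested on simulated data. Same-numbered samples deviated together from their group means over 4488 genes (r = 0.211, 0.269 and 0.384 for numbers 1, 2 and 3), while the labels state no link between them, so the pairing rests on the data; both fits are given. The members, gene lists and settings were chosen with earlier results of these data known. Named genes were the 9 members, the tested receptors of members, the 3 genes of each list with the smallest p (1 of these genes is not reported here) and the 2 genes most correlated with each tested member. Alternatives changed the background correction, scaling, filter, probe rule, slide row, block and samples; normexp used the median signal (offset 50).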

Additional observations from a re-analysis of the deposited data

How the results depend on the processing

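C5a called 0 genes and 0 tested members in each setting (4488 genes, or 2183 with detection on all 6 arrays) except that, with no filter on dim probes (46522 genes), 47 were called, 9 of them higher, and none of these was a member. The replicate block changed no call (0 genes, lowest adjusted p 0.927), and as a random effect it also called 0. The sign of a member's difference, past no threshold in any setting, turned in 31 of 108 cases (6 members, 18 settings). The replicate block, fixed or random, and the filter settings leave the difference unchanged, so those cases could not turn. The same holds for the mean over kept probes for every member but Ccl4. With normexp and quantile normalization Ccl4, Ccl5 and Ccl9 were at 0.12, 0.051 and 0.054, and with quantile normalization alone at 0.049, 0.054 and 0.0096. With the percentile over all probes they were at 0.21, 0.34 and 0.36, and in the deposited series table at 0.22, 0.34 and 0.35; these 2 settings put the median of all genes at 0.399 and 0.4, above all 3. With the slide row as a covariate Ccl3, Ccl5 and Ccl9 were at -0.37, 0.50 and 0.74, and with outlier spots kept Ccl9 was at 0.00081. Leaving out each sample in turn gave -0.35 to 1.22 for Ccl3, -0.70 to 0.40 for Ccl4, -0.54 to 0.32 for Ccl5, -0.72 to 0.61 for Ccl9, -0.38 to 0.80 for Ccl17 and -0.080 to 0.84 for Ccl24. The replicate number term, which called 0 genes, called 38 with normexp, 17 among probes well above background on all 6 arrays (2183 genes), 2102 with the percentile over all probes, 2106 in the series table and 34648 of 46522 with no filter. Of the members, Ccl3 and Ccl17 were called with normexp, the percentile over all probes, the series table and no filter, Ccl4 with the last 3 of these and among probes on all 6 arrays, Ccl9 with normexp, no filter and probes on all 6 arrays, Ccl24 with no filter, and Ccl5 in none. With the percentile over all probes, number 3 minus number 2 was -0.24 for Ccl4, -0.65 for Ccl5 and -0.051 for Ccl24, and number 2 minus number 1 was 0.34 for Ccl17. In the series table these were -0.245, -0.655, -0.055 and 0.345. The cause was not tested. Signal near background limits Ccl2, Ccl6 and Ccl22.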
